A study of Macaca mulatta with 10 samples.

Results

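The cytochrome P450 genes of rhesus macaque liver were described in 5 brain-dead and 5 control animals. Members were all probe sets of the array whose platform annotation paired them with exactly 1 symbol starting with CYP and a digit, whatever their signal, and they were sorted by CYP subfamily into classes named for their main substrates. The rule found 57 probe sets of 36 genes, out of 52865 probe sets and 14133 named genes in all.

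Cytochromes P450 are haem enzymes, most of them held in the membrane of the endoplasmic reticulum, that put an oxygen atom into a substrate with electrons passed on by POR or, in mitochondria, by ferredoxin. The CYP1, CYP2 and CYP3 families of liver oxidise drugs and other foreign compounds, and nuclear receptors such as NR1I2 (the pregnane X receptor) and NR1I3 (the constitutive androstane receptor) switch many of these genes on. Other families act on the body's own molecules, namely fatty acids, retinoic acid, cholesterol and bile acids, steroid hormones and vitamin D.

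RNA of 1 liver per animal was hybridised to a 1-colour array. Controls were living donors, anaesthetised and ventilated for 1 h before the liver was taken out; they were 3 females and 2 males aged 4 to 20 y. Brain death was induced in 2 females and 3 males, aged 7 to 18 y with 1 age not given, by slowly inflating a balloon outside the dura. The labels of the samples give 6 h of brain death, the design text 5 h. Blood pressure was held in these animals with fluid, vasopressin and/or dopamine, so brain death, hours under ventilation and these drugs cannot be told apart. All livers had been flushed in place with UW solution before recovery. The animals carry replicate numbers from 1 to 5 in each group, and nothing in the sources used here ties a number to a batch.

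Array medians lay between 175 and 227 in deposited signal units, and precision is limited by having 5 arrays a group. Of the 10 hepatocyte markers listed, 7 had a probe set that was measured, with a summed signal of 568297 to 707130 in controls and 494870 to 544409 in brain-dead animals; all 7 had a change below 0 and none passed the threshold (limma; 3 at an unadjusted p under 0.05). Of the neutrophil markers 5 were measured and 2, S100A8 and S100A9, rose. The other 3, CSF3R (0.76 ± 0.34), FCGR3 (0.05 ± 0.38) and ELANE (-0.38 ± 0.40), did not pass (limma, adjusted p = 0.195, 0.954 and 0.612). The summed signal of that list was 1958 to 6738 in controls and 10161 to 57662 in brain-dead animals. In brain-dead animals most of that sum was S100A8 and S100A9, which read 23242 and 32408 in brain-dead animal 5. None of the 7 macrophage, 3 lymphocyte, 7 endothelial, 3 cholangiocyte, 2 stellate and 3 red cell markers measured passed the threshold in limma, and 2 of them, both endothelial, had an unadjusted p under 0.05. In whole tissue, fewer cells of a type and less RNA per cell cannot be told apart, and the part of these shifts in the P450 results was not tested. Both animals numbered 1 stood apart from the other 8 on the second principal component, so results that need them are given without them too.

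Most measured P450 genes had a lower mean signal in brain-dead animals, and few passed the test. Where a gene had more than 1 measured probe set, the one with the highest mean log2 signal stood for it. Of 26 P450 genes measured, 3 fell, 1 rose and 22 did not pass the threshold (limma, Benjamini-Hochberg adjusted p under 0.05 over all probe sets). Over all 9835 genes measured, 3.87% fell and 2.90% rose, 6.77% in all. The change was below 0 in 18 of the 26 genes, with a median of -0.35 on the log2 scale, against 50.5% of all genes and a median of -0.0069. An unadjusted p under 0.05 was reached by 10 of the 26 genes and by 25.1% of all genes. Groups did not overlap for 5 of the 26 genes and for 7.80% of all genes.

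Counted by probe set, 38 of the 57 were measured, which means above the median of their array on at least 5 of the 10 arrays. Of these 38, 5 fell and 1 rose; of all probe sets 3.39% fell and 2.72% rose, 6.10% in all. The signals of both groups did not overlap for 5 P450 probe sets, and 6.93% of all probe sets had no overlap. Apart from CYP2R1, the calls depended on single animals. Without control 1, 2 or 3, or without brain-dead animal 4 or 5, 1 call was made, while the calls over all probe sets went from 1627 to between 660 and 856. There were 2 calls without brain-dead animal 3 (892 over all probe sets), 3 without brain-dead animal 1 (1308), 4 without control 5 (1243) or brain-dead animal 2 (1839), 7 without control 4 (2289) and 0 without both animals numbered 1 (674).

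**Figure D1:**
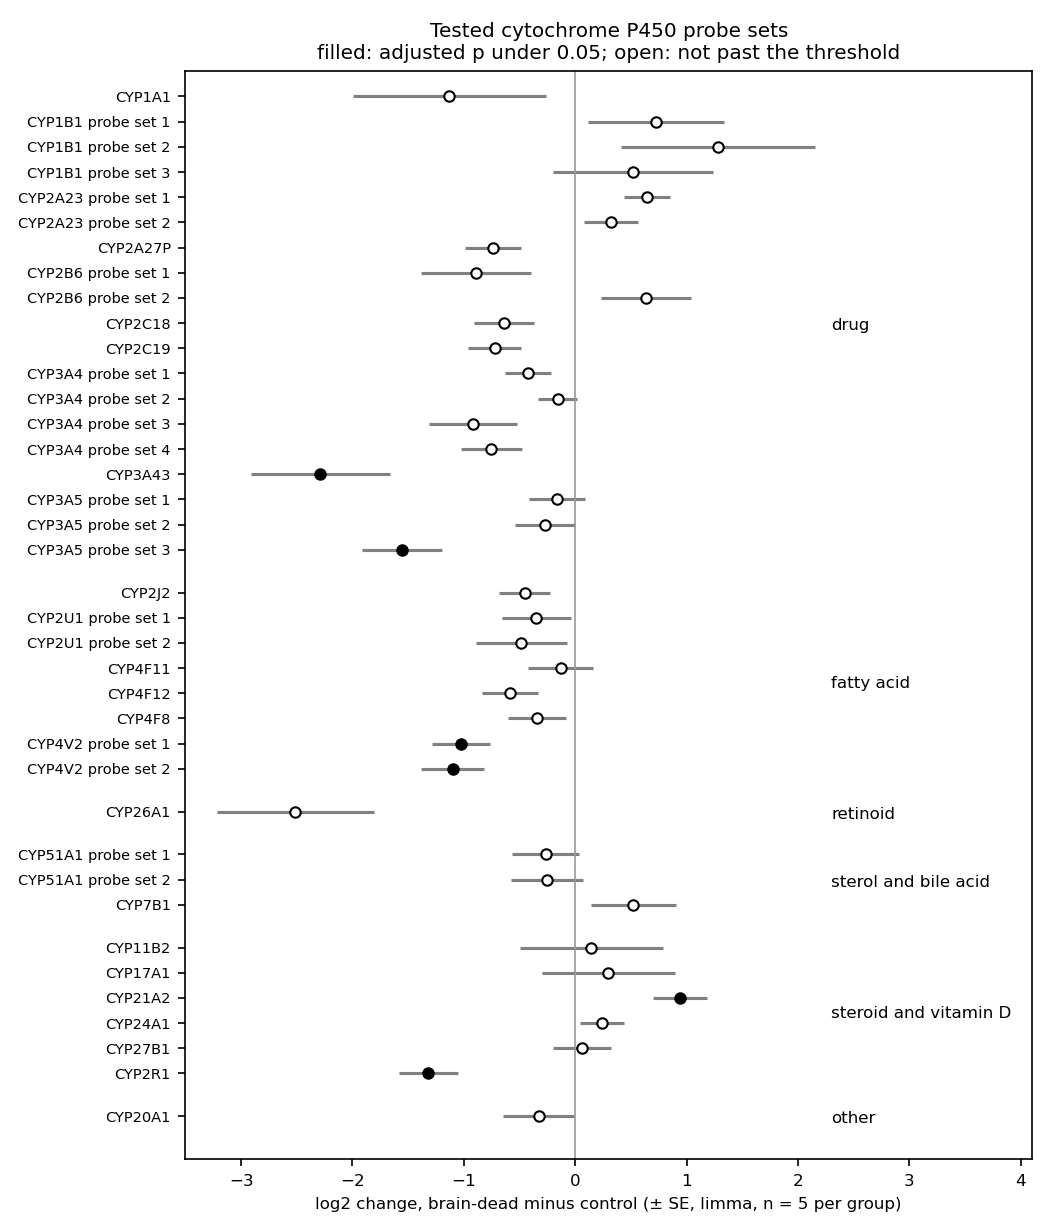
Log2 change of the 38 measured P450 probe sets, brain-dead minus control, with limma's standard error (5 animals per group), sorted by class from top to bottom; filled points passed an adjusted p of 0.05. The 6 filled points are CYP3A43, 1 of 3 CYP3A5 probe sets, both CYP4V2 probe sets and CYP2R1 below 0, and CYP21A2 above 0.

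The drug class held 24 probe sets of 13 genes, with 10 genes measured. CYP3A43 fell and the other 9 genes did not pass; 8 of the 10 had a change below 0, and the median was -0.68. Brain-dead animals differed from one another in this class. Set against the control mean, the median over these 10 genes was -0.08 in brain-dead animal 1, -0.98 in animal 2, -0.36 in animal 3, -0.27 in animal 4 and -0.92 in animal 5, with the controls between -0.16 and 0.21. By this median animals 2 and 5 were lowest and animal 1 lay within the range of the controls, although the lowest brain-dead reading of single genes fell to animals 1, 2 and 5 in 3 genes each and to animal 4 in 1.

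CYP3A43, a minor member of the CYP3A subfamily of drug- and steroid-oxidising enzymes, had the largest fall of the drug class. Its signal was 24489, 21011, 28114, 4935 and 9396 in controls 1 to 5 and 923, 7486, 3960, 1328 and 6653 in brain-dead animals 1 to 5. Brain-dead animals 2 and 5 lay above control 4, so the groups overlap, while controls 1 to 3, the control females, lay far above every brain-dead animal. It fell by 2.29 ± 0.62 on the log2 scale (SE, n = 5 per group), or 4.88-fold (limma, adjusted p = 0.0463). The call was lost when any 1 of controls 1, 2, 3 and 5 or of brain-dead animals 1, 3, 4 and 5 was left out (change from -2.58 to -1.86, adjusted p from 0.0551 to 0.111). Without both animals numbered 1 the change was -1.68, with an adjusted p of 0.161. The call was also lost with sex in the model (-2.14, adjusted p = 0.0653), with sex and age (0.0993), on centring each array on its median (0.0518), without eBayes trend (0.0566) and without the filter (0.0727). Its single probe set is of a type that can bind transcripts of several related genes.

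CYP3A5, which oxidises many of the same drugs as CYP3A4, had 3 measured probe sets, 1 of which passed. The probe set MmugDNA.6075.1.S1_at had signals of 2522, 3721, 2493, 1292 and 927 in controls and 1092, 588, 670, 464 and 638 in brain-dead animals. Only brain-dead animal 1 lay above the lowest control. This probe set fell by 1.56 ± 0.36 on the log2 scale, or 2.94-fold (limma, adjusted p = 0.0260). The call was lost without control 1, 2 or 3 or brain-dead animal 3, 4 or 5 (change from -1.56 to -1.32, adjusted p from 0.0517 to 0.0634), and without both animals numbered 1 (-1.64, adjusted p = 0.0545).

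The other CYP3A5 probe sets did not pass. The representative probe set is of the type that can bind transcripts of several related genes, and the falling probe set and the third are not. The one that represents the gene, MmugDNA.40591.1.S1_s_at, read 19011, 27494, 16999, 12852 and 17863 in controls and 13099, 13647, 13622, 25646 and 18380 in brain-dead animals, a change of -0.17 ± 0.25 (limma, adjusted p = 0.732). The third read 7753 to 14162 in controls and 4923 to 13410 in brain-dead animals, a change of -0.27 ± 0.27 (limma, adjusted p = 0.578). The difference between the representative and the falling probe set, taken within each array, was 1.39 on the log2 scale with a two-sided exact permutation p of 0.0159, which is 0.270 after adjustment over the 17 probe set pairs compared within P450 genes. None of these 17 pairs passed after adjustment.

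CYP3A4, the enzyme that clears the widest range of drugs in human liver, had 4 measured probe sets and none passed. All 4, like that of CYP3A43, are of types that can bind transcripts of several related genes. Its representative probe set read 79063, 139273, 93288, 98554 and 88792 in controls and 93706, 49343, 79969, 85512 and 64915 in brain-dead animals. Brain-dead animals 2 and 5 lay below every control, and the other 3 lay within the control range. The changes of the 4 probe sets were -0.43 ± 0.21, -0.16 ± 0.18, -0.76 ± 0.27 and -0.92 ± 0.39, with adjusted p of limma from 0.116 to 0.635. The change of -0.16 turned to 0.012 after quantile normalization.

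**Figure D2:**
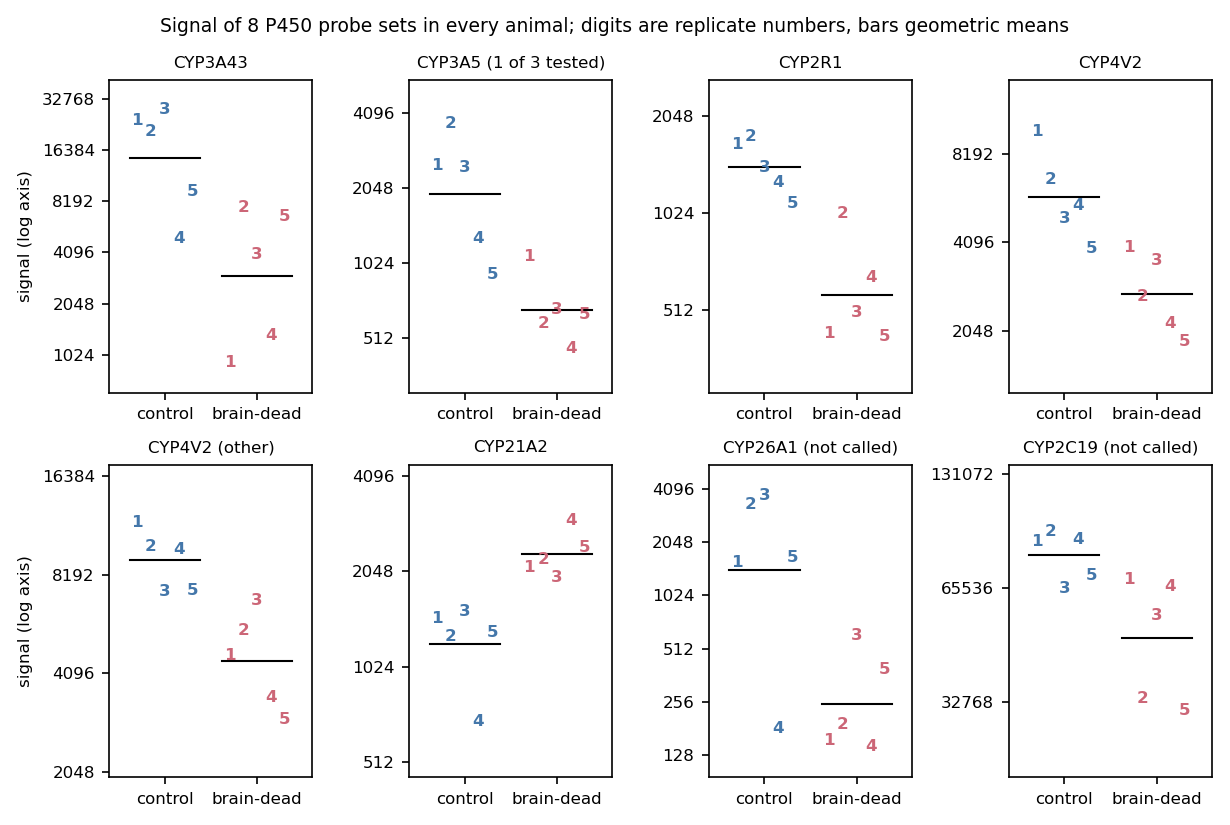
Signal of 8 P450 probe sets in every animal on log axes, controls at left and brain-dead animals at right; each digit is an animal's replicate number and the bars are geometric means of 5 animals. Controls and brain-dead animals do not overlap for CYP2R1, CYP21A2 and 1 of the CYP4V2 probe sets, while control 4 lies among the brain-dead animals for CYP3A43 and CYP26A1.

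The CYP2C enzymes metabolise many acidic drugs. CYP2C19 read 86758, 92152, 65346, 87648 and 70450 in controls and 68809, 33434, 55564, 65935 and 31123 in brain-dead animals, a change of -0.72 ± 0.24 (limma, adjusted p = 0.0911). CYP2C18 read 90254, 86209, 45971, 89721 and 70743 against 69042, 33831, 55422, 61700 and 30858, a change of -0.64 ± 0.27 (limma, adjusted p = 0.164). In both, brain-dead animals 2 and 5 were the lowest of all 10 animals. The readings of both probe sets lay within 6.86% of each other on every brain-dead array. They lay 42.1% apart in control 3 and at most 6.89% apart in the other controls. Transcripts of these close paralogs may reach both probe sets, so they may not be separate evidence. The counts and medians over genes given here still take CYP2C18 and CYP2C19 as separate genes.

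CYP2B6, a textbook target of NR1I3, showed the same pair of low animals. It read 35483, 51078, 59672, 60791 and 35719 in controls, and 59779, 11679, 40273, 48184 and 7880 in brain-dead animals. Animals 2 and 5 lay below every control and the other 3 within the control range, so the highest brain-dead value was 7.59 times the lowest, against 1.71 times in controls. The change of -0.89 ± 0.49 did not pass (limma, adjusted p = 0.295). Another CYP2B6 probe set had a change of 0.63 ± 0.40 (limma, adjusted p = 0.366), and a further 2 were below the filter.

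Within the CYP2A cluster neighbouring genes differed in sign. CYP2A23, a relative of the nicotine-oxidising CYP2A6 of humans, read 9580, 6373, 9194, 10762 and 7568 in controls and 15200, 11634, 16851, 11651 and 12248 in brain-dead animals on its representative probe set. All 5 brain-dead animals lay above all 5 controls, and the change of 0.64 ± 0.21 did not pass (limma, adjusted p = 0.0816). The other CYP2A23 probe set had a change of 0.32 ± 0.24 with overlapping groups (limma, adjusted p = 0.455). CYP2A27P, annotated as a transcribed pseudogene and next to CYP2A23 in the reference gene table, read 18774, 11149, 9573, 11059 and 23300 in controls and 7418, 7513, 9138, 9269 and 8485 in brain-dead animals. Its groups did not overlap either, with all brain-dead animals below all controls, and its change of -0.74 ± 0.25 did not pass (limma, adjusted p = 0.101). CYP2A24 was below the filter.

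The CYP1 genes, which the aryl hydrocarbon receptor induces, varied widely within groups. CYP1A1 read 8786, 8836, 480, 2280 and 1275 in controls and 3777, 260, 3453, 606 and 1044 in brain-dead animals. The highest control was 18.4 times the lowest and the highest brain-dead animal 14.5 times the lowest, and the change of -1.13 ± 0.86 did not pass (limma, adjusted p = 0.462). The 3 CYP1B1 probe sets had changes of 0.72 ± 0.61, 1.28 ± 0.87 and 0.52 ± 0.72, none of which passed (limma, adjusted p from 0.399 to 0.708). On the first, brain-dead animal 2 read 1530 and animal 1 read 631, against 104 to 254 in the other 3 and 139 to 473 in controls. CYP2F1 and CYP2S1 were below the filter.

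**Figure D3:**
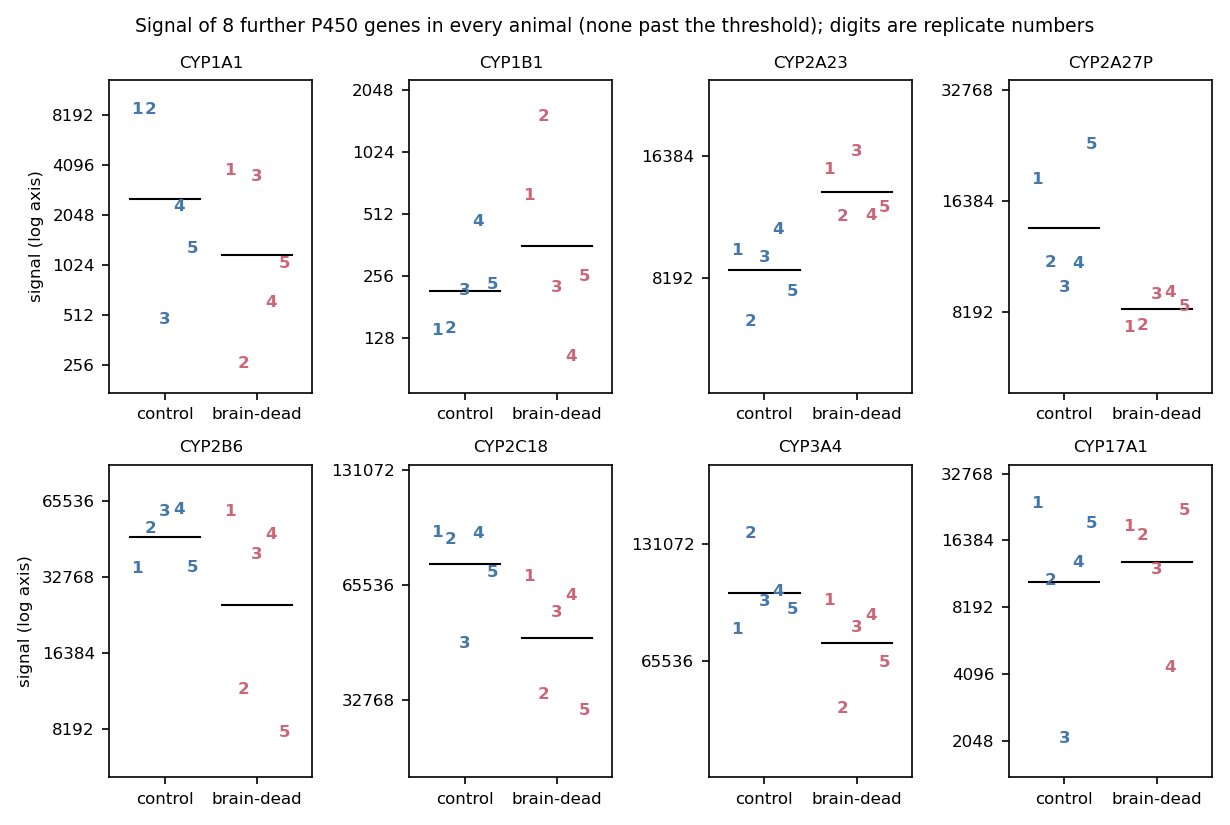
Signal of 8 further P450 genes in every animal on log axes (1 probe set per gene, none past the threshold), controls at left and brain-dead animals at right; each digit is an animal's replicate number and the bars are geometric means of 5 animals. Brain-dead animals 2 and 5 are the lowest for CYP2B6, CYP2C18 and CYP3A4, the groups do not overlap for CYP2A23 and CYP2A27P, and CYP1A1 spreads from 480 to 8836 within controls.

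The fatty acid class held 14 probe sets of 9 genes, with 6 genes measured. CYP4V2 fell, the other 5 did not pass, and all 6 had a change below 0, with a median of -0.40. Set against the control mean, the median over the 6 genes lay between -0.64 and -0.18 in the brain-dead animals and between -0.44 and 0.26 in the controls. Control 4, the lowest control, lay below brain-dead animal 4.

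CYP4V2, an omega-hydroxylase of fatty acids, fell on both of its probe sets, the only P450 gene called on more than 1. The probe set MmugDNA.16011.1.S1_at read 11835, 9984, 7299, 9806 and 7333 in controls and 4625, 5542, 6815, 3459 and 2952 in brain-dead animals, without overlap. It fell by 1.02 ± 0.26 on the log2 scale, or 2.03-fold (limma, adjusted p = 0.0350). On MmugDNA.35600.1.S1_at the readings were 9784, 6721, 4953, 5488 and 3907 against 3933, 2678, 3550, 2172 and 1888, and brain-dead animal 1 lay just above control 5. It fell by 1.10 ± 0.29 there, or 2.15-fold (limma, adjusted p = 0.0395).

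Both calls of CYP4V2 depended on single animals. The first was lost without control 1, 2 or 3 or brain-dead animal 1, 4 or 5 (change from -1.10 to -0.87, adjusted p from 0.0543 to 0.0857). The second was lost without control 1, 2 or 3 or brain-dead animal 2, 3, 4 or 5 (change from -1.20 to -0.92, adjusted p from 0.0528 to 0.0983). Without both animals numbered 1 the changes were -0.94 and -1.05, with adjusted p of 0.101 and 0.0600. Both were lost without the filter (0.0519 and 0.0559), and the second with sex and age in the model (0.0508).

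The other 5 fatty acid genes did not pass. CYP4F12, a hydroxylase of eicosanoids and some antihistamines, read 17578, 16282, 15674, 14647 and 21568 in controls and 9450, 14578, 7540, 18777 and 9638 in brain-dead animals. Animals 1, 3 and 5 lay well below every control, animal 2 just below and animal 4 within their range, and the change was -0.58 ± 0.25 (limma, adjusted p = 0.179). CYP4F11, which hydroxylates long-chain fatty acids, had the smallest change of the class, -0.13 ± 0.29. CYP2J2, which turns arachidonic acid into epoxides, had a change of -0.45 ± 0.23, CYP4F8 of -0.34 ± 0.26, and the 2 probe sets of CYP2U1 of -0.35 ± 0.31 and -0.48 ± 0.41. The adjusted p of these last 5 probe sets lay between 0.251 and 0.828 in limma. CYP4B1, CYP4F22 and CYP4X1 were below the filter.

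CYP26A1, which breaks down retinoic acid and is itself induced by it, had the lowest fitted change of all P450 genes and missed the threshold. It read 1570, 3332, 3750, 181 and 1675 in controls and 154, 189, 603, 143 and 388 in brain-dead animals. Control 4 lay among the brain-dead animals, and the other 4 controls lay above all of them. The change was -2.52 ± 0.70 on the log2 scale (limma, adjusted p = 0.0516), just outside the threshold where CYP3A43 lay just inside it. Without control 4 the change was -3.26 and the adjusted p 0.00271 in limma, while calls over all probe sets rose from 1627 to 2289. Over 21 alternative fits, with settings changed or animals left out, the change lay between -3.26 and -2.17. The adjusted p of limma in those fits lay between 0.00271 and 0.162.

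The other CYP26A1 probe set, below the filter on signal, read 164, 314, 328, 41 and 219 in controls and 10, 45, 66, 16 and 52 in brain-dead animals. It has the same low control 4. Fitted without the filter its change was -2.50 ± 0.68 with an adjusted p of 0.0766 in limma. CYP26B1, the other retinoic acid hydroxylase on the array, was below the filter.

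Sterol and bile acid enzymes had 4 probe sets of 3 genes; 2 genes were measured, and neither passed, nor had an unadjusted p under 0.05 in limma. CYP7B1, which hydroxylates oxysterols on the alternative route to bile acids, read 198, 303, 92, 279 and 209 in controls and 226, 361, 192, 239 and 519 in brain-dead animals, a change of 0.52 ± 0.38 (limma, adjusted p = 0.438). The groups overlap throughout. CYP51A1, the demethylase of lanosterol in cholesterol synthesis, had changes of -0.27 ± 0.30 and -0.25 ± 0.32 on its probe sets (limma, adjusted p = 0.639 and 0.678). Its representative read 4795 to 14018 in controls and 6567 to 12480 in brain-dead animals. CYP46A1, a cholesterol hydroxylase of brain, was below the filter. CYP7A1, CYP8B1, CYP27A1 and CYP39A1 were not analysed here.

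Steroid and vitamin D enzymes had 11 probe sets of 8 genes, with 6 genes measured. CYP2R1 fell, CYP21A2 rose, 4 did not pass, and the median was 0.19, with 5 of the 6 changes above 0.

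CYP2R1, the liver hydroxylase that makes the circulating form of vitamin D, had the lowest adjusted p of the P450 genes. It read 1666, 1770, 1418, 1270 and 1097 in controls and 431, 1018, 502, 643 and 423 in brain-dead animals. All 5 brain-dead animals lay below all 5 controls, with brain-dead animal 2 nearest to them. The mean signal was 1444 ± 277 in controls and 604 ± 248 in brain-dead animals (SD, n = 5), and it fell by 1.32 ± 0.26 on the log2 scale, or 2.50-fold (limma, adjusted p = 0.0146). The call was kept when any single animal was left out, and was lost without both animals numbered 1 (change -1.16, adjusted p = 0.0626).

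The enzymes that act next on vitamin D did not pass the threshold. CYP27B1, which makes the active hormone, mainly in kidney, read 386 to 686 in controls and 338 to 800 in brain-dead animals, a change of 0.06 ± 0.26 (limma, adjusted p = 0.917). CYP24A1, which inactivates it, read 5828, 4831, 4122, 5920 and 4785 against 7240, 5804, 4768, 5833 and 6431, a change of 0.24 ± 0.20 (limma, adjusted p = 0.499). Whether these changes differ from that of CYP2R1 was not tested.

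CYP21A2, a steroid hydroxylase of the adrenal cortex needed for cortisol and aldosterone, was the only P450 gene that rose. It read 1458, 1277, 1530, 685 and 1313 in controls and 2102, 2228, 1965, 2968 and 2439 in brain-dead animals, with every brain-dead animal above every control. The rise was 0.94 ± 0.25 on the log2 scale, or 1.92-fold (limma, adjusted p = 0.0407). The call was lost when any animal other than control 4 was left out (adjusted p from 0.0537 to 0.0950), without both animals numbered 1 (0.0744), with sex and age in the model (0.0701) and without the filter (0.0584), while the change lay between 0.85 and 1.04 in these fits. Of 6 adrenal cortex markers, STAR, MC2R, NR5A1 and MRAP were below the filter on every probe set, and the 2 measured, HSD3B2 (0.76 ± 0.62) and FDX1 (-0.01 ± 0.19), did not pass (limma, adjusted p = 0.490 and 0.985).

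CYP17A1, which splits progestogens towards androgens, read 23960, 10785, 2094, 12966 and 19520 in controls and 18827, 17232, 12154, 4362 and 22301 in brain-dead animals. Control 3 and brain-dead animal 4 were low and the rest overlap, and the change of 0.30 ± 0.60 (limma, adjusted p = 0.809) was -0.29 without control 3. CYP11B2, the aldosterone synthase, had a change of 0.14 ± 0.64 (limma, adjusted p = 0.920), with 29 in brain-dead animal 5 and 241 to 621 in the other 4. CYP11B1, its cortisol-making relative, and the aromatase CYP19A1 were below the filter.

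CYP20A1, a P450 without an assigned substrate, read 1048 to 2228 in controls and 496 to 1627 in brain-dead animals, a change of -0.33 ± 0.32 (limma, adjusted p = 0.577).

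**Figure D4:**
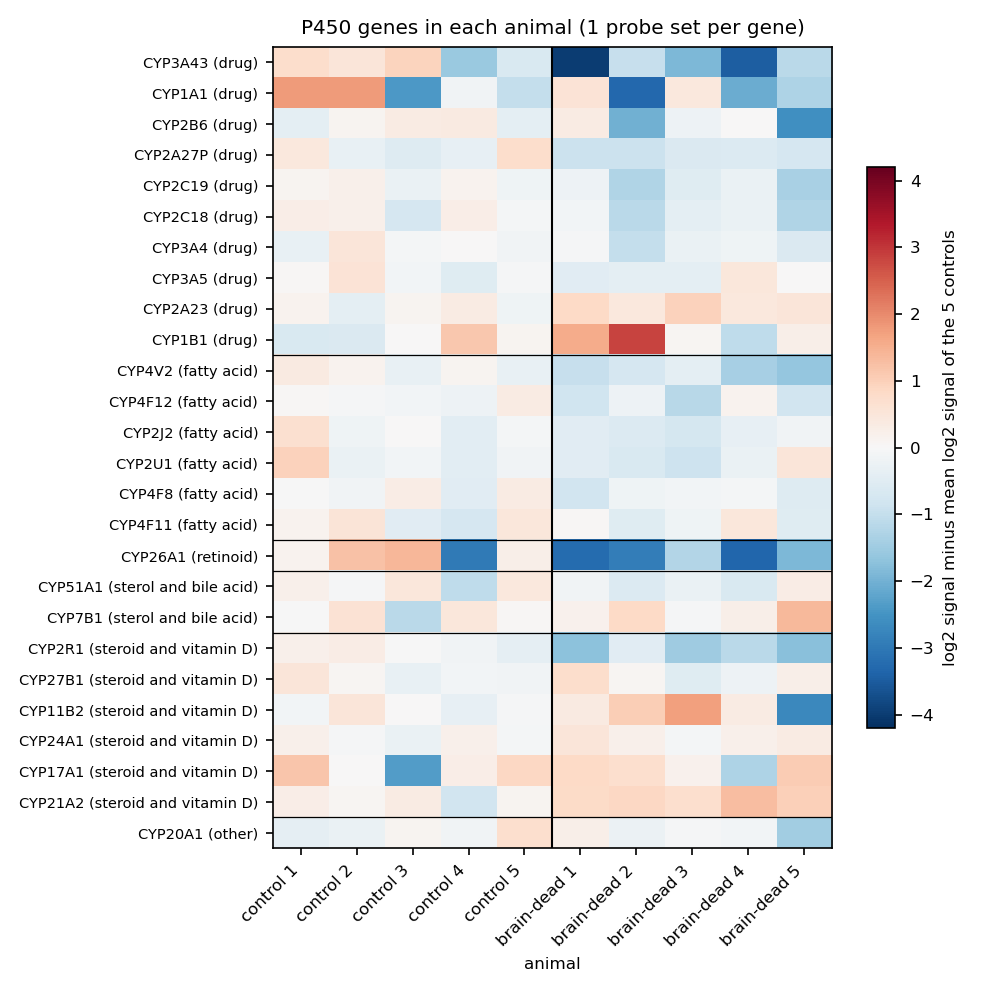
Log2 signal of 26 P450 genes (1 probe set per gene, rows sorted by class) in each of the 10 animals, as the difference from the mean of the 5 controls; blue is below and red above that mean. Brain-dead animals 2 and 5 hold the deepest blue of CYP2B6, CYP2C18 and CYP2C19, while CYP2R1 and CYP4V2 are blue in all 5 brain-dead animals and CYP21A2 is red in all 5.

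Counted over all classes, the number of the 26 genes that lay below the lowest control was 9 in brain-dead animal 1, 11 in animal 2, 9 in animal 3, 6 in animal 4 and 11 in animal 5. Over all 9835 genes the share below the lowest control was 20.8%, 19.4%, 19.8%, 22.3% and 27.1% in the same animals. The genes that were low differed between animals. CYP3A43 was lowest in brain-dead animal 1, CYP3A4 and CYP1A1 in animal 2, and CYP2B6, CYP2C18, CYP2C19 and CYP4V2 in animal 5.

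The 19 probe sets below the filter were read on every array and fitted apart. Their highest signal on any array lay between 40.0 and 492. Fitted without the filter, 0 of the 19 had an adjusted p under 0.05 in limma and 1, of CYP26A1, had an unadjusted p under 0.05, and none had groups without overlap. No P450 gene with only such probe sets is described further; these are 10 genes, namely CYP2A24, CYP2F1, CYP2S1, CYP4B1, CYP4F22, CYP4X1, CYP26B1, CYP46A1, CYP11B1 and CYP19A1.

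The P450 enzymes need electrons and haem. Of 21 partners and haem enzymes listed, 18 were measured, and 4 fell, 1 rose and 13 did not pass, against 6.77% of all genes called. The list was chosen with earlier results of these data known, so its share of calls may reflect that choice. The median change was -0.39. All 5 called genes are among the 7 measured enzymes of haem synthesis; the other 2, UROD (-0.33 ± 0.26) and PPOX (-0.55 ± 0.24), did not pass (limma, adjusted p = 0.480 and 0.178). ALAS1, the rate-limiting enzyme of the path, had the largest fall, from 13366 to 27978 in controls to 627 to 6449 in brain-dead animals, a change of -3.09 ± 0.47 (limma, adjusted p = 0.00416). ALAD, the next enzyme, read 12018, 18088, 27990, 21788 and 24531 against 8884, 9792, 7508, 12243 and 2424, and fell by 1.48 ± 0.39 on the log2 scale (limma, adjusted p = 0.0415). Its other probe set fell by 2.05 ± 0.38 without overlap (limma, adjusted p = 0.0108). UROS, further along, fell by 1.01 ± 0.27 on that scale without overlap (limma, adjusted p = 0.0430), and FECH, which inserts the iron, fell by 1.22 ± 0.33 (limma, adjusted p = 0.0451).

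CPOX, a mitochondrial enzyme of the same path between UROS and FECH, rose. It read 10032, 5568, 9568, 10965 and 13769 in controls and 38908, 23905, 30193, 17920 and 22192 in brain-dead animals, without overlap. The rise was 1.42 ± 0.27 on the log2 scale (limma, adjusted p = 0.0121). ALAS1 and CPOX kept their calls without any single animal and without both numbered 1.

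The other 3 haem calls, each on the gene's representative probe set, depended on single animals. That of ALAD was lost without any 1 of 7 animals (controls 2 to 5 and brain-dead animals 1, 3 and 5; change from -1.55 to -1.09, adjusted p from 0.0515 to 0.0983); its other probe set was not followed in these fits. FECH was lost without control 1, 2, 3 or 5 or brain-dead animal 2, 3, 4 or 5 (change from -1.30 to -1.05, adjusted p from 0.0572 to 0.114), and UROS without any animal but brain-dead animal 3 (change from -1.11 to -0.85, adjusted p from 0.0543 to 0.105). Without both animals numbered 1, ALAD (adjusted p = 0.0587) and UROS (0.0903) lost their calls and FECH kept its own (0.0372). With sex in the model ALAD (0.0577), FECH (0.0571) and UROS (0.0535) did not pass. The other probe sets of FECH and UROS had changes of -1.05 and -0.97 and did not pass (limma, adjusted p = 0.0940 and 0.133).

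Among the electron carriers, POR, which serves all P450 enzymes of the endoplasmic reticulum, had a change of -0.05 ± 0.28 (limma, adjusted p = 0.938). CYB5A, cytochrome b5, read 66047, 91928, 66845, 72421 and 74569 in controls and 46078, 52663, 58092, 50913 and 35085 in brain-dead animals, without overlap, and its change of -0.62 ± 0.18 did not pass (limma, adjusted p = 0.0521). PGRMC1 and PGRMC2, haem-binding membrane proteins that associate with P450 enzymes, did not pass on their representative probe sets, with changes of -0.45 ± 0.17 and -0.83 ± 0.24 (limma, adjusted p = 0.118 and 0.0550). Other probe sets of these genes did: 2 of PGRMC1, each with a change of -1.07 (limma, adjusted p = 0.0214 and 0.0389), and 1 of PGRMC2 with a change of -1.48 (limma, adjusted p = 0.00728). HMOX2, on the same list, had changes of 0.54 ± 0.22 and 0.56 ± 0.19 without overlap on 2 probe sets and -0.04 ± 0.34 on another. None of them passed (limma, adjusted p = 0.156, 0.0905 and 0.964). Of the 18 listed genes measured, 15 had a change below 0 and 3 above 0.

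**Figure D5:**
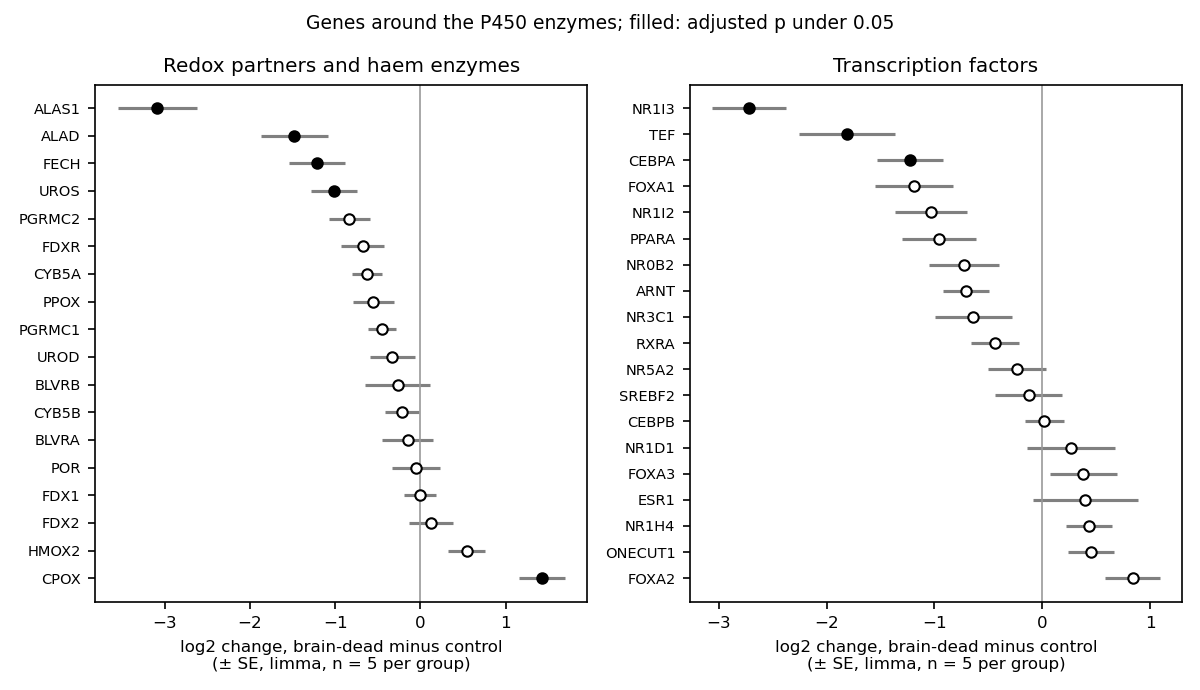
Log2 change, brain-dead minus control, with limma's standard error (5 animals per group), of 18 redox partners and haem enzymes (left) and 19 transcription factors that control P450 genes (right), 1 probe set per gene; filled points passed an adjusted p of 0.05. ALAS1 (-3.09) and NR1I3 (-2.72) lie furthest below 0, and CPOX (1.42) is the filled point above 0.

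Of 25 transcription factors known to control P450 genes, 19 were measured, and 3 fell and 16 did not pass. Of all genes 3.87% fell and 6.77% were called. This list too was chosen with earlier results of these data known, so its share of calls may reflect that choice. The median change was -0.44. NR1I3 read 3079, 5089, 3824, 2001 and 2001 in controls and 712, 339, 521, 631 and 245 in brain-dead animals. The groups are far apart, and the change was -2.72 ± 0.34 (limma, adjusted p = 0.00244), a call kept without any single animal. TEF, a clock-controlled factor, fell by 1.81 ± 0.45 on the log2 scale (limma, adjusted p = 0.0332), and CEBPA, a factor of mature hepatocytes, fell by 1.23 ± 0.31 (limma, adjusted p = 0.0351). The other 2 probe sets of CEBPA fell too (limma, adjusted p = 0.0398 and 0.0476). TEF was lost without control 1, 2 or 3 or brain-dead animal 1, 3 or 5 (change from -1.86 to -1.48, adjusted p from 0.0593 to 0.0800), and the representative of CEBPA without control 1, 3 or 5 or brain-dead animal 2, 3, 4 or 5 (change from -1.23 to -1.09, adjusted p from 0.0556 to 0.0885). Without both animals numbered 1 the change of TEF was -1.49 (adjusted p = 0.122) and that of CEBPA -1.25 (0.0576), so both calls were lost. Both were also lost in limma with sex and age in the model (TEF 0.0671, CEBPA 0.112) and without the filter (0.0544 and 0.0594). CEBPA was lost with sex in the model (0.0502) and on centring each array on its median (0.0573).

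NR1I2, the receptor that induces CYP3A4, read 2423, 2510, 2578, 1218 and 1227 in controls and 1839, 721, 567, 951 and 915 in brain-dead animals. All but brain-dead animal 1 lay below the lowest control, and the change of -1.03 ± 0.34 did not pass (limma, adjusted p = 0.0861). PPARA, which induces fatty acid hydroxylases, had a change of -0.96 ± 0.34 (limma, adjusted p = 0.112), and FOXA1 of -1.19 ± 0.36 (limma, adjusted p = 0.0689). FOXA2 had a change in the other direction, 0.84 ± 0.25, which did not pass either (limma, adjusted p = 0.0647). Of the 19 transcription factors measured, 12 had a change below 0 and 7 above 0.

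Whether the sexes responded differently was tested with the interaction of group and sex, with controls of 3 females and 2 males and brain-dead animals of 2 females and 3 males. No P450 probe set passed (0 of 38 at an adjusted p under 0.05 in limma, lowest 0.9998; 0.00% of all probe sets), while 4 of the 38 had an unadjusted p under 0.05, as had 3.81% of all probe sets. Of these 4, 3 were the CYP1B1 probe sets and the fourth was CYP26A1. CYP1B1 on the probe set MmugDNA.30721.1.S1_at had a change of 2.60 in females and -0.87 in males, and CYP26A1 of -3.98 in females and -0.77 in males. Among the called probe sets, CYP2R1 had changes of -1.28 and -1.20 in females and males. CYP4V2 had -0.91 and -1.04 on the probe set without overlap, and -1.08 and -0.92 on the other. The sexes were further apart for CYP3A43 (-3.21 and -1.06), the called CYP3A5 probe set (-1.84 and -0.91) and CYP21A2 (0.61 and 1.35).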

How the data were processed

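Liver RNA of 10 animals was measured on 1 array each. The deposited values are linear intensities, 1 for each probe set on each array, which the authors computed with MAS5 per the submitters' processing notes (version not given in the sources used here). Each array's intensity, trimmed by 2% at both ends, averages 1000.

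Log2 of the signal was taken with no pseudocount. Control probe sets (99) were left out, and 26653 probe sets above their array's median on at least 5 of 10 arrays were fitted with limma 3.58.1 in R 4.3.3 (lmFit, eBayes with trend, group alone), adjusted by Benjamini-Hochberg over all of them, with a threshold of 0.05. Errors are limma's standard errors unless called SD. The smallest two-sided exact permutation p for 5 against 5 arrays is 0.00794. Names come from the platform annotation, in which 24969 probe sets had 1 symbol, 361 had several and 27535 had none. All 36 P450 gene IDs were found in the reference gene table. Input was loaded by the R package data.table (1.17.8); matplotlib 3.10.9 drew the plots.

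P450 members, classes, partner and marker lists were chosen with earlier results of these data known. Values in every animal are given for called or non-overlapping probe sets, the largest rise and fall of each class, and a list of well-known P450 genes; of that list, CYP1A2, CYP2C8, CYP2D6, CYP2E1, CYP4A11, CYP4F2 and CYP4F3 were not analysed here. From the partner and regulator lists those past the threshold are named by rule. POR, CYB5A, PGRMC1, PGRMC2, HMOX2, NR1I2, PPARA, FOXA1 and FOXA2 were added after their values were seen. Labels name the animals as separate. Limma's p-values set the group difference against the spread between these animals, moderated by eBayes over all fitted probe sets. Alternatives were other normalizations, pseudocounts (16, 64), filters, covariates, variance settings, a replicate block and leaving out arrays. The fit was tested on simulated data.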

Additional observations from a re-analysis of the deposited data

Results flagged for a closer look

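Control animal 1 was high for CYP2U1, at 10207 against 3864 to 4903 in the other 4 controls. Control animal 4 was low for CYP26A1, at 181 against 1570 to 3750 in the other controls, and low for CYP21A2, at 685 against 1277 to 1530. These 3 were the outlying values by Dixon's criterion among 76 groups of 5 P450 readings examined, where chance gives about 1 in 20.

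CYP1B1 on the probe set MmugDNA.36286.1.S1_at read 61, 32 and 223 in control females and 493 and 2454 in brain-dead females, but 406 and 300 in control males and 130, 100 and 287 in brain-dead males, so both sexes moved in opposite directions without overlap. How many of all probe sets separate in this way, with 2 or 3 animals of a sex in each group, was not counted. On the other 2 CYP1B1 probe sets the males overlapped, with brain-dead animal 5 above a control male on each (254 against 232, and 273 against 265). For MmugDNA.36286.1.S1_at the male minus female difference in change was -5.03 ± 1.20 on the log2 scale. That interaction did not pass (limma, unadjusted p = 0.00137, adjusted p = 0.9998).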

How the results depend on the processing

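Of 1001 values of 46 named probe sets under the alternatives, 870 kept direction and side of the threshold, 114 lost a call, 8 gained one and 9 reversed in sign; NR1I3, ALAS1 and CPOX kept their calls throughout, and CYP2R1 in all but 1. With no filter, 2 P450 probe sets (1 P450 gene, 2 partner genes and 1 regulator) were called in place of 6 (4, 5 and 3), and the sterol and bile acid median was -0.27, as it was with a filter at the 75th percentile (main 0.13); each filter changes which genes enter it. Without both animals numbered 1, 0 P450 probe sets and 0 P450 genes were called by limma, 3 partner genes and 1 regulator, and 8 of 38 P450 probe sets had no overlap, as had 11.9% of all probe sets with 4 animals a group. Partner genes called were 3 after centring, 2 with sex, 3 with sex and age and 2 without trend, and regulators 1 with sex and age and 7 with array weights. Over all probe sets, 1627 of 26653 were called in the main fit and 1056 of 52766 without the filter. Such calls numbered 1424 after centring, 1443 with sex, 1035 with sex and age, 1370 without trend and 2394 with array weights. Leaving out 1 array gave 1 to 7 P450 probe sets, 1 to 5 P450 genes, 2 to 4 partner genes and 1 to 5 regulators.

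The same-number correlation was 0.380 for number 1, 0.0643 for 2, 0.128 for 3, 0.0889 for 4 and 0.128 for 5. Both animals numbered 1 correlated best with each other. Of the remaining animals, only brain-dead animal 5 correlated best with its own number. Whether replicate numbers stand for a pairing of the animals was not tested. With the replicate block 7 P450 probe sets, 7 partner genes and 6 regulators were called: CYP2A23 (adjusted p = 0.0424) and CYP26A1 (0.0137) gained, CYP21A2 (0.0514) lost, and 3013 probe sets in all against 1627. CYP26A1 also passed with pseudocounts of 16 (0.0487) and 64 (0.0437), with sex and age (0.0197) and with array weights (0.0184), as CYP2A23 did with array weights (0.0457). Counting the fit without control 4, CYP26A1 passed in 6 of its 21 alternatives and did not pass in the other 15.

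Changes that reversed, none of them called, were CYP3A4 after quantile normalization (0.012), CYP11B2 with sex and age (-0.048), and 5 genes when 1 array was left out. Over those fits CYP4F11 ranged from -0.31 to 0.0057 (above 0 without control 2), CYP17A1 from -0.29 (without control 3) to 0.69, a CYP1B1 probe set from -0.090 (without brain-dead animal 2) to 1.03, CYP27B1 from -0.11 to 0.20 (below 0 without control 3 or brain-dead animal 1) and CYP11B2 from -0.25 to 0.86 (below 0 without brain-dead animal 2 or 3). Except as stated, the cause was not tested.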

Other observations

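Probe sets of P450 genes outside the naming rule gave these values. LOC678691, whose synonyms in the reference gene table include CYP2D17 and CYP2D42 of the drug-oxidising CYP2D family, read 44956, 50032, 46267, 27327 and 43397 in controls and 34668, 19255, 27005, 36850 and 28625 in brain-dead animals, a change of -0.54 ± 0.22 (limma, adjusted p = 0.164). A probe set annotated to both CYP3A5 and CYP3A4 had a change of -0.36 ± 0.15 (limma, adjusted p = 0.173), with brain-dead animal 2 lowest at 74008. A probe set annotated to 4 CYP2A genes had a change of 0.10 ± 0.37 (limma, adjusted p = 0.908).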
